A study of Mus musculus with 20 samples.

Results

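The interaction of MCAD loss and lipopolysaccharide (LPS) was the difference between 2 responses in mouse liver: the change from vehicle to LPS in MCAD-/- mice minus the same change in wild type mice, on the log2 scale. It used all 20 arrays of the series, in 4 groups of 5 mice, and was described across the 18193 genes that had a probe set with a single gene symbol, each gene by its brightest probe set. Of these, 8774 exceeded 16 intensity units on at least 5 arrays and were tested. A gene was called well measured where all 4 of its group means were at least 16 units, which held for 7282 of the tested genes. The other 1492 had a group mean near the floor of the intensity scale and are described apart.

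All mice were male, aged 50 to 60 days and of BL6/SV129 mixed background, and had fasted for 12 h when the liver was taken. Wild type mice formed a vehicle and an LPS group, and so did MCAD-/- mice, with LPS injected at 100 µg per 20 g of body weight ahead of the fast. MCAD-/- mice lack medium-chain acyl-CoA dehydrogenase, encoded by Acadm,. The labels do not say whether wild type and MCAD-/- mice were littermates, and with a mixed background other strain differences can run with the genotype. Since every group was fasted, the comparisons are within fasting. The study's title concerns how the MCAD-deficient liver handles carbohydrate under high metabolic demand, and the interaction asks which transcripts answered LPS differently when the enzyme was missing.

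Medium-chain acyl-CoA dehydrogenase catalyses the opening step of mitochondrial beta-oxidation for fatty acids of medium chain length, which a fasting liver burns to fuel gluconeogenesis and ketone synthesis. LPS, a component of the outer membrane of Gram-negative bacteria, is sensed through Toll-like receptor 4 on Kupffer cells, sinusoidal endothelial cells and hepatocytes. It switches the liver to production of acute phase proteins and interferon-induced proteins, and lowers many metabolic transcripts.

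Acadm followed the genotype labels in every mouse. With vehicle it read 3106 to 4022 units in wild type and 9.03 to 80.2 units in MCAD-/- mice, and with LPS 1449.9 to 2375 and 14.3 to 218 units (exact permutation p = 0.00794 for each injection, two-sided, the smallest that groups of 5 allow). Whether its probe set lies in the deleted part of the gene is not given in the sources used here. Its own interaction, 1.16 ± 0.80 (SE), did not pass (adjusted p = 0.446). Between 30.18% and 32.28% of probe sets exceeded 16 units on each array. The 3' to 5' log2 ratio of the actin control probes, a sign of RNA quality, was 3.18 on wild type vehicle replicate 3 and 3.69 on wild type LPS replicate 4, and 1.35 to 2.34 on the other 18 arrays. Of hepatocyte secreted proteins, 29 of 29 tested genes were well measured.

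Of the 8774 tested genes, 361 (4.11%) had an interaction past the threshold, an adjusted p under 0.05. It was positive, meaning that the response was higher in MCAD-/- mice, in 119 (1.36%) and negative in 242 (2.76%). At an unadjusted p under 0.05 the count was 1744. Of the 7282 well measured genes 204 passed (2.80%), 72 in the positive and 132 in the negative direction. Of the 1492 genes near the floor 157 passed (10.5%), 47 and 110. Such a gene can enter the test through a single high group, so the 10.5% is not comparable with the 2.80%. The median interaction over all tested genes was -0.07 and its median size 0.23, against a median size of 1.03 among the 204. LPS itself changed far more genes: 5614 in wild type (64%) and 5768 in MCAD-/- mice (65.7%). An interaction has a larger SE than either response, so the lower count does not by itself show a smaller effect. By its median size of 0.23 the fitted interaction was small for most genes. The plot of LPS responses in each genotype shows a cloud along the line of equal response.

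**Figure D1:**
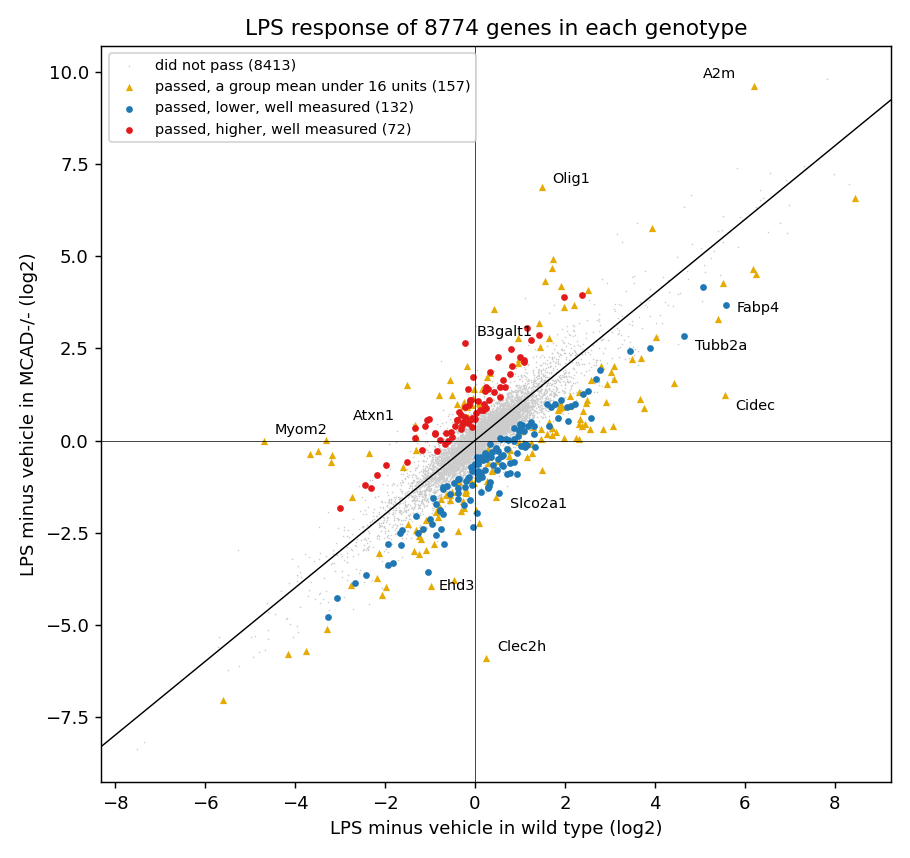
Log2 LPS response of each of the 8774 tested genes in wild type (x axis) and MCAD-/- mice (y axis). The diagonal marks equal responses; 72 well measured genes lie above it and 132 below it with an interaction past the threshold, and triangles mark the 157 called genes with a group mean under 16 units.

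Among the 204 well measured genes, LPS moved the mean in opposite directions in the 2 genotypes in 83, in the same direction but further in MCAD-/- mice in 75, and in the same direction but less far in 46. The LPS response itself passed in both genotypes and the same direction in 80 genes, in both with opposite directions in 22, in MCAD-/- mice alone in 67 and in wild type alone in 35. The interaction can also be read as the genotype difference with LPS minus that with vehicle. Over all tested genes the genotype difference passed in 1422 (16.2%) with vehicle and in 1806 (20.6%) with LPS. For 104 of the 204 it passed with LPS and not with vehicle, for 65 with vehicle and not with LPS, for 20 with both in opposite directions, for 11 with both in the same direction and for 4 with neither. Of the 132 negative interactions, 42 had a genotype difference past the threshold with vehicle and not with LPS, and 73 with LPS and not with vehicle.

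Endothelial cell markers differed between the genotypes mostly with vehicle. Of 23 genes in the list 20 passed the intensity filter and 14 were well measured; 9 of the 20 had a negative interaction past the threshold and 0 a positive one, against the 2.76% of all tested genes called lower. All 20 values were negative, with a median of -1.47, where 58.3% of all tested genes were negative with a median of -0.07. With vehicle 17 of the 20 were higher in MCAD-/- mice (median difference 1.17), and with LPS 1 was higher and 2 were lower (median -0.11). LPS lowered 14 and raised 2 of them in MCAD-/- mice, and lowered 4 and raised 6 in wild type. The mean log2 level of the tested markers in a mouse was 4.96 to 5.85 in wild type with vehicle, 4.91 to 5.62 in wild type with LPS, 6.36 to 6.91 in MCAD-/- with vehicle and 4.69 to 5.58 in MCAD-/- with LPS. The MCAD-/- mice with vehicle thus stood above all other mice, and the other 3 groups overlapped. In whole liver, a difference in the number of endothelial cells and a difference in these transcripts per cell cannot be told apart.

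Ehd3, an ATPase of endocytic recycling found in sinusoidal endothelium, had the most negative interaction of the well measured genes. It read 75.9, 47.7, 66.8, 35.1 and 57.9 units in the wild type mice with vehicle and 32.6, 31.4, 16.6, 21.2 and 35.6 with LPS. In MCAD-/- mice it read 362, 256, 237, 219.6 and 221 units with vehicle and 22.1, 25.9, 17.7, 22.9 and 19.0 with LPS. All 5 MCAD-/- mice with vehicle lay above every other mouse, and the genotypes overlapped after LPS. Its fall was 11.9-fold in MCAD-/- and 2.07-fold in wild type mice, an interaction of -2.52 ± 0.31 (SE, adjusted p = 5.02e-05).

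Kdr, the receptor of vascular endothelial growth factor that drives angiogenesis, followed the same order. It read 64.8, 22.2, 79.5, 28.6 and 40.6 units in wild type with vehicle, 29.6, 33.4, 14.3, 24.1 and 35.2 in wild type with LPS, 146, 108, 99.1, 115 and 109 in MCAD-/- with vehicle and 18.0, 24.7, 11, 22.2 and 10.5 in MCAD-/- with LPS. Again the MCAD-/- mice with vehicle lay above all others. The interaction was -2.12 ± 0.46 (adjusted p = 0.0115), with a lowest group mean of 16.2 units, close to the floor. Flt4, the related receptor of lymphatic and sinusoidal endothelium, averaged 48.3 and 44.5 units in wild type and fell from 102 to 33.2 units in MCAD-/- mice (interaction -1.51 ± 0.32, adjusted p = 0.0112). The other markers past the threshold were Stab2, a hyaluronan scavenger receptor (-1.46), Ptprb, a receptor phosphatase (-1.50), the nuclease Dnase1l3 (-1.55) and, each with a group mean under 16 units, Clec4g (-1.95), Tek (-2.0) and Gpr182 (-1.12).

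Genes outside the list, chosen here after their values were seen, are also expressed in endothelium, and 3 of them were among the 10 most negative interactions. Aqp1, a water channel of endothelium and bile ducts, read 202, 93.9, 262, 103 and 122 units in wild type with vehicle and 161, 195, 93.9, 134 and 139.7 with LPS. In MCAD-/- mice it read 564, 408, 387, 416 and 249 units with vehicle and 179, 93.3, 30.3, 77.2 and 71.5 with LPS. The MCAD-/- mice with and without LPS did not overlap, while replicate 5 with vehicle reached into the wild type range; the interaction was -2.30 ± 0.51 (adjusted p = 0.0141). Cavin2, a coat protein of caveolae, averaged 44.1, 45.7, 106 and 27.0 units in wild type given vehicle or LPS and then MCAD-/- given vehicle or LPS (-2.02 ± 0.57, adjusted p = 0.0479). Its call ended without any 1 of 14 of the 20 mice, at an adjusted p of up to 0.0882. On its next brightest probe set Cavin2 gave -1.14 (adjusted p = 0.264). Clec1b, a lectin receptor, rose from 65.5 to 124 units in wild type and fell from 166 to 89.0 in MCAD-/- mice (-1.82 ± 0.45, adjusted p = 0.0251). Without wild type LPS replicate 4 its interaction was -1.68 (adjusted p = 0.0503). Vcam1, an adhesion molecule of activated endothelium, likewise rose in wild type, from 62.9 to 88.5 units, and fell in MCAD-/- mice, from 191 to 110.3 (-1.29 ± 0.30, adjusted p = 0.0173).

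Slco2a1, which carries prostaglandins into cells, had LPS responses of opposite sign that both passed. It read 46.9, 23.3, 55.9, 39.5 and 38.7 units in wild type with vehicle and 52.4, 63.1, 52.8, 65.1 and 52.8 with LPS. In MCAD-/- mice it read 222, 194, 279, 267 and 176 units with vehicle and 99.5, 86.5, 70.4, 99.9 and 64.3 with LPS. All MCAD-/- mice with vehicle were above all other mice. The rise in wild type was 1.45-fold (adjusted p = 0.0202) and the fall in MCAD-/- 2.70-fold (adjusted p = 2.30e-06), an interaction of -1.97 ± 0.27 (adjusted p = 0.000228).

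Of 22 stellate cell and fibroblast markers 16 were tested, and of these 3 had a negative interaction past the threshold and 0 a positive one, against the 2.76% of all tested genes called lower; 14 values were negative, with a median of -0.58 over the tested members and -0.28 over the 12 well measured ones. With vehicle 10 of the 16 were higher in MCAD-/- mice. Pdgfrb, the platelet-derived growth factor receptor of pericytes and stellate cells, read 30.0, 22.7, 24.2, 18.1 and 33.2 units in wild type with vehicle and 51.3, 36.6, 40.3, 39.5 and 40.0 with LPS. In MCAD-/- mice it read 44.7, 52.2, 39.4, 42.0 and 61.3 units with vehicle and 23.5, 31.1, 18.8, 40.9 and 17.8 with LPS. The wild type groups did not overlap, and in MCAD-/- mice 1 LPS value, that of replicate 4, reached into the vehicle range (-1.63 ± 0.29, adjusted p = 0.00264). Bgn, the matrix proteoglycan biglycan, averaged 197 and 189 units in wild type and fell from 389 to 169.5 units in MCAD-/- mice (-1.14 ± 0.23, adjusted p = 0.00851). The remaining call was Angptl6 (-0.78), with both LPS means under 16 units.

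**Figure D2:**
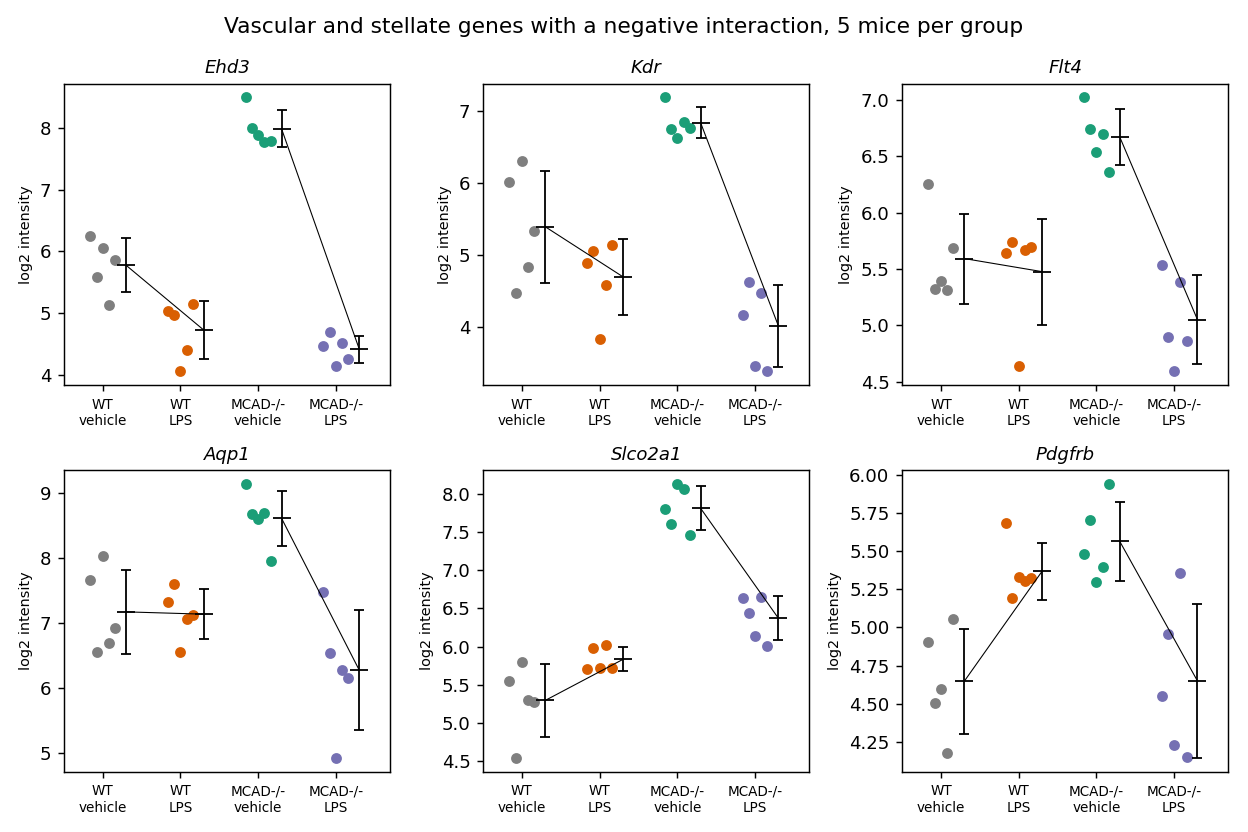
Log2 intensity of 6 genes in each of the 5 mice per group (points) with the mean ± SD (black); lines join the means of vehicle and LPS within a genotype. Ehd3, Kdr, Flt4 and Slco2a1 were highest in all 5 MCAD-/- mice with vehicle; Pdgfrb rose with LPS in wild type and fell in MCAD-/- mice.

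Markers of other liver cell types did not pass in the same way. Of 19 Kupffer cell and macrophage markers 14 were tested, of which 13 values were negative (median -0.64) and 0 passed in either direction. Over all tested genes 58.3% were negative and 4.11% passed. With vehicle 8 of these markers were higher in MCAD-/- mice. Their mean log2 level was 6.49 to 7.10 in wild type with vehicle, 5.59 to 6.71 in wild type with LPS, 7.23 to 7.61 in MCAD-/- with vehicle and 5.66 to 6.75 in MCAD-/- with LPS. Of 18 neutrophil markers 6 were tested, none of them well measured, and 0 passed (median 0.17); all 6 rose with LPS in both genotypes. Of 20 lymphocyte markers 0 passed the intensity filter, and of 12 cholangiocyte markers 2 did, of which Slc10a2 had a positive interaction past the threshold. Endothelial, stellate and Kupffer cell markers were all highest in the MCAD-/- mice with vehicle, and their part in the results for other genes was not tested.

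The largest positive interaction of a well measured gene was that of B3galt1, a galactosyltransferase that builds sugar chains of glycolipids and glycoproteins. It read 566, 362, 520.0, 392 and 438 units in wild type with vehicle and 339, 290.1, 415, 449 and 478 with LPS. In MCAD-/- mice it read 129, 79.3, 77.0, 128 and 167 units with vehicle and 784, 747, 568, 643 and 766 with LPS. Every MCAD-/- mouse was below every wild type mouse with vehicle and above every wild type mouse with LPS. The level rose 6.28-fold in MCAD-/- mice (adjusted p = 8.12e-10), and the wild type difference of -0.21 did not pass (adjusted p = 0.360), giving an interaction of 2.86 ± 0.28 (adjusted p = 3.04e-06).

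Il1r1, the signalling receptor of interleukin-1 that induces acute phase genes in hepatocytes, was also among the 10 largest. It read 392, 277, 302, 253 and 376 units in wild type with vehicle, 285, 436, 594, 393 and 653 in wild type with LPS, 134, 146, 87.5, 146 and 314 in MCAD-/- with vehicle and 749, 646, 835, 558 and 882 in MCAD-/- with LPS. Only replicate 5 of the MCAD-/- mice with vehicle reached the wild type range, and the LPS groups overlapped. The rise in MCAD-/- mice was 4.80-fold, the wild type difference of 0.52 did not pass (adjusted p = 0.0928), and the interaction was 1.74 ± 0.37 (adjusted p = 0.0115).

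The sequences before the starts of B3galt1 and Il1r1 are shown because the LPS response of these genes passed in MCAD-/- mice and missed in wild type, and LPS acts on transcription through NF-kappaB and C/EBP factors. Each line gives the 250 bases before an annotated RefSeq start on the gene's own strand, build GRCm38.p6, 5′ to 3′. Capitals mark a match to an NF-kappaB motif (GGGNNTTCC) or a C/EBP motif (TTNNGCAA) on either strand. The windows are chr2:67565439-67565688, chr1:40224830-40225079 and chr1:40266336-40266585, all on the plus strand. A further annotated start of B3galt1, with the window chr2:68104422-68104671, held no match to any motif searched and is not printed.
B3galt1: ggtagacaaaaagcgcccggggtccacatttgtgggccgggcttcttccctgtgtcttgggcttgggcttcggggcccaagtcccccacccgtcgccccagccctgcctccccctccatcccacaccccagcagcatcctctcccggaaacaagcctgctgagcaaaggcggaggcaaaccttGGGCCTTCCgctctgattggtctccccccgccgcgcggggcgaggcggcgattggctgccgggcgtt
Il1r1, upstream start: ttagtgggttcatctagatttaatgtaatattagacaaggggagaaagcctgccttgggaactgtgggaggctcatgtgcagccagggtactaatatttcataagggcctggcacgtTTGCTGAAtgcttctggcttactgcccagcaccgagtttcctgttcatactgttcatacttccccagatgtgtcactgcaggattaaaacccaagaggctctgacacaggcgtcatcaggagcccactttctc
Il1r1, downstream start: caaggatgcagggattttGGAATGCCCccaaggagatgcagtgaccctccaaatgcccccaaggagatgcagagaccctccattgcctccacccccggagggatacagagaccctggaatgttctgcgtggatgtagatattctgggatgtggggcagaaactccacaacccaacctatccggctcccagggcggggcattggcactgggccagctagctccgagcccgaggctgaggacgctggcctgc

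These matches describe the letters only. Of the promoters of well measured genes with a positive interaction, 80 windows of 59 genes, 5.0% held the NF-kappaB motif and 8.8% the C/EBP motif, against 6.3% and 8.2% of the windows of all tested genes and 5.0% and 9.6% of all 32851 windows in the table. Of the 278 windows of all genes with a negative interaction, 18.0% held the C/EBP motif and 16.9% an ETS motif (CAGGAAG), against 8.2% and 10.3% of the windows of all tested genes; among the well measured ones, with 146 windows, the shares were 11.6% and 11%. The 278 windows belong to 191 genes, and no share was taken over all tested genes near the floor. Of 14 windows of the endothelial markers 3 held the ETS motif. The upstream window of Ehd3 at chr17:73804591-73804840 held none of the 10 motifs searched.

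Tiparp, a polymerase of ADP-ribose induced through the aryl hydrocarbon receptor, rose with LPS in both genotypes but further in MCAD-/- mice. It read 68.3, 35.7, 73.0, 41.0 and 50.1 units in wild type with vehicle, 206, 140.2, 303, 228 and 175 in wild type with LPS, 19.2, 18.2, 29.7, 26.2 and 33.1 in MCAD-/- with vehicle and 303, 275, 667, 235 and 513 in MCAD-/- with LPS. The genotypes were apart with vehicle and overlapped with LPS. The interaction was 1.92 ± 0.40 (adjusted p = 0.00854), and on a linear scale the call was lost (adjusted p = 0.118). H2bc21, a histone H2B, averaged 26.8 and 27.3 units with vehicle in wild type and MCAD-/- mice and rose to 59.5 and 225 with LPS (1.89 ± 0.52, adjusted p = 0.0437). Leaving out any 1 of 13 of the 20 mice ended that call (adjusted p up to 0.0837).

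Slc3a1, the heavy subunit of the cystine and dibasic amino acid transporter, changed with LPS in MCAD-/- mice alone. It read 351, 473, 517, 458 and 406 units in wild type with vehicle, 481, 418, 429, 470.0 and 352 in wild type with LPS, 228, 259, 193, 258 and 442 in MCAD-/- with vehicle and 849, 968, 1071, 1256 and 482 in MCAD-/- with LPS. In 4 of the 5 MCAD-/- mice with LPS it was above all other mice, and replicate 5 of each MCAD-/- group lay within the range of the wild type mice with vehicle (1.77 ± 0.31, adjusted p = 0.00264). Brca1, a DNA repair protein, rose 1.73-fold in wild type and 5.64-fold in MCAD-/- mice (1.70 ± 0.38, adjusted p = 0.0142). On its next brightest probe set the value was 1.16 (adjusted p = 0.208).

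Atxn1, a transcriptional corepressor, fell in wild type and rose slightly in MCAD-/- mice. It read 97.0, 130.2, 139, 132 and 115 units in wild type with vehicle, 53.5, 46.9, 61.4, 35.5 and 47.1 in wild type with LPS, 78.2, 124, 84.5, 91.1 and 77.9 in MCAD-/- with vehicle and 109.9, 114, 139.6, 112 and 101 in MCAD-/- with LPS. The wild type mice with LPS lay below all other mice, while the 3 other groups overlapped. The wild type fall was 2.53-fold (adjusted p = 2.74e-07), the MCAD-/- rise 1.28-fold (adjusted p = 0.0483) and the interaction 1.69 ± 0.21 (adjusted p = 7.27e-05). Slc4a4, a sodium bicarbonate cotransporter, fell from 536 to 256 units in wild type and rose from 301 to 445 in MCAD-/- mice (1.63 ± 0.26, adjusted p = 0.00105). Gclc, the catalytic subunit of the enzyme that limits glutathione synthesis, fell 1.86-fold in wild type and its MCAD-/- difference of 0.20 did not pass (interaction 1.10 ± 0.20, adjusted p = 0.00264). 4932438A13Rik passed in both genotypes with opposite signs too, with 0.99 ± 0.18 (adjusted p = 0.00307), while its next brightest probe set gave 1.61 (adjusted p = 0.105).

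**Figure D3:**
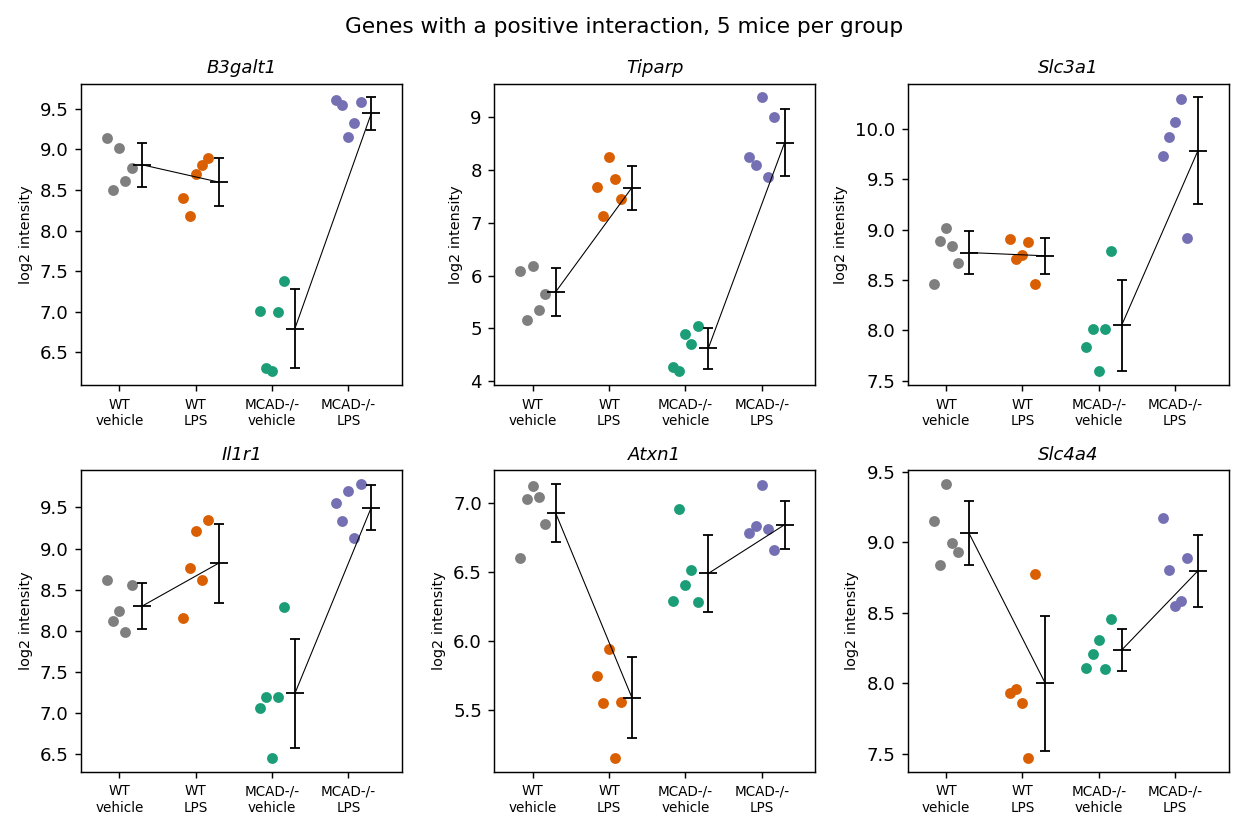
Log2 intensity of 6 genes with a positive interaction in each of the 5 mice per group (points) with the mean ± SD (black); lines join vehicle and LPS within a genotype. For B3galt1 and Slc3a1 the line was nearly flat in wild type and rose in MCAD-/- mice, and for Atxn1 and Slc4a4 it fell in wild type and rose in MCAD-/- mice.

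Acnat2 and Ugt3a1 completed the 10 largest. Acnat2, which conjugates acyl groups to amino acids in peroxisomes, averaged 153 and 803 units in wild type and 17.8 and 272 in MCAD-/- mice, a rise of 5.24-fold and 15.3-fold (1.55 ± 0.40, adjusted p = 0.0308). In units the rise was the larger in wild type, and on a linear scale the sign turned (-1.16 relative to the gene's mean, adjusted p = 0.000706). Ugt3a1, a UDP-glycosyltransferase, fell from 81.5 to 40.4 units in wild type and averaged 162 and 243 in MCAD-/- mice (1.60 ± 0.42, adjusted p = 0.0330). The call of Acnat2 ended without any 1 of 5 mice (adjusted p up to 0.0599) and that of Ugt3a1 without any 1 of 9 (up to 0.0658). On its next brightest probe set Ugt3a1 gave 1.32 (adjusted p = 0.0789).

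The remaining genes among the 10 most negative were induced less in MCAD-/- mice or lowered further. Tmprss2, a membrane serine protease, read 12.6, 17.3, 26.5, 15.4 and 15.5 units in wild type with vehicle, 156, 83.9, 101, 175 and 46.1 in wild type with LPS, 25.3, 29.8, 17.4, 19.8 and 30.3 in MCAD-/- with vehicle and 47.2, 56.7, 22.1, 42.7 and 24.9 in MCAD-/- with LPS. The wild type groups were apart, while the MCAD-/- groups overlapped, as did the genotypes under either injection (-1.98 ± 0.45, adjusted p = 0.0167; on the next brightest probe set adjusted p = 0.0667). Tubb2a, a beta-tubulin, rose 25.1-fold in wild type and 7.14-fold in MCAD-/- mice (-1.81 ± 0.26, adjusted p = 0.000362), with -0.96 on its next brightest probe set (adjusted p = 0.136). Pir, the iron-binding nuclear protein pirin, fell 1.82-fold in wild type and 5.91-fold in MCAD-/- mice (-1.70 ± 0.32, adjusted p = 0.00441). Myo10, a myosin of filopodia, rose from 55.3 to 94.4 units in wild type and fell from 71.2 to 38.9 in MCAD-/- mice (-1.64 ± 0.29, adjusted p = 0.00264), but its next brightest probe set gave -0.76 (adjusted p = 0.350).

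Fabp4, a fatty acid carrier of adipocytes, macrophages and endothelium, differed between genotypes with vehicle only. It read 32, 10.4, 61.5, 15.1 and 13.7 units in wild type with vehicle, 847, 875, 1081, 959.8 and 1386 in wild type with LPS, 143, 71.2, 86.1, 76.4 and 73.1 in MCAD-/- with vehicle and 1403, 1110.1, 1199, 968 and 959 in MCAD-/- with LPS. The LPS groups overlapped and the vehicle groups did not. The log2 interaction of -1.89 ± 0.48 (adjusted p = 0.0309) was 0.06 on a linear scale relative to the gene's mean (adjusted p = 0.909), and the call ended without any 1 of 5 mice (adjusted p up to 0.0622). On the next brightest probe set of Fabp4 the value was -1.12 (adjusted p = 0.0633).

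Genes near the intensity floor gave the largest log2 values, and each of these depends on where the floor lies. Clec2h, a lectin-like ligand of natural killer cell receptors, read 324, 184, 245, 387 and 58.1 units in MCAD-/- mice with vehicle and 2.71 to 4.13 units in all 15 other mice. Its fitted interaction was -6.15 ± 0.46 (adjusted p = 9.14e-08), and no bound can be given because 3 groups were near the floor. Clec2h passed the intensity filter only through its high group, so its p is not separate support for that pattern. Cidec, a lipid droplet protein, read 436, 532, 361, 472 and 381 units in wild type mice with LPS, 42.1, 11.5, 20.1, 8.29 and 11.2 in MCAD-/- mice with LPS and 5.75 to 13.8 in the vehicle groups. It was thus well above the floor in wild type with LPS alone (-4.32 ± 0.44, adjusted p = 5.06e-06).

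Nr0b2, the bile acid-induced repressor SHP, and Sgk2, a serum and glucocorticoid regulated kinase, lay near the floor in MCAD-/- mice with LPS alone. Nr0b2 read 274, 232, 88.7, 187 and 259 units in wild type with vehicle, 151, 291, 77.2, 191 and 83.3 in wild type with LPS, 167, 331, 326, 227 and 119 in MCAD-/- with vehicle and 11, 25, 4.32, 70.3 and 12.2 in MCAD-/- with LPS. All 5 MCAD-/- mice with LPS were below the other 15. With each value of that group under 16 units raised to 16, its interaction was at most -2.74, and that of Sgk2 at most -2.14 (fitted -3.31 and -2.97, adjusted p = 0.0187 and 0.00214). Without both arrays of high actin ratio the value of Nr0b2 was -2.92 (adjusted p = 0.0605).

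In the positive direction Olig1, a transcription factor best known from oligodendrocytes, read 794, 471, 1234, 239 and 559.9 units in MCAD-/- mice with LPS and 2.59 to 37.7 units in the other 15 mice (5.40 ± 0.70, adjusted p = 9.17e-05). Myom2, a protein of the muscle sarcomere, read 265, 293, 731, 365 and 281 units in vehicle-treated wild type mice and 10.3, 57.2, 12.4, 9.50 and 7.39 in wild type with LPS, and stayed under 4 units in MCAD-/- mice. Its positive value (4.66 ± 0.55, adjusted p = 2.78e-05) was thus a fall in wild type from a level that MCAD-/- mice did not have. Trhde, an ectoenzyme that degrades thyrotropin-releasing hormone, had the same pattern, with 19.8 to 50.4 units in wild type with vehicle and 2.28 to 3.35 elsewhere (3.32 ± 0.27, adjusted p = 2.66e-07). With values raised to 16 units its interaction was 0.78 (adjusted p = 0.0556). Trhde, too, passed the intensity filter only through the group where it was high.

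A2m, the protease inhibitor alpha-2-macroglobulin, rose in both genotypes. It read 5.05 to 6.34 units in wild type with vehicle and 501, 746, 542, 290.0 and 234 with LPS. In MCAD-/- mice it read 5.79, 3.76, 6.43, 5.01 and 73.4 units with vehicle and 8261, 6777, 7028, 6783 and 6149.7 with LPS. With LPS the lowest MCAD-/- mouse was far above the highest wild type mouse, a genotype difference of 4.04 on the log2 scale (adjusted p = 1.78e-05), and MCAD-/- vehicle replicate 5 was alone above the floor with vehicle. The fitted interaction was 3.43 ± 0.76 (adjusted p = 0.0136).

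**Figure D4:**
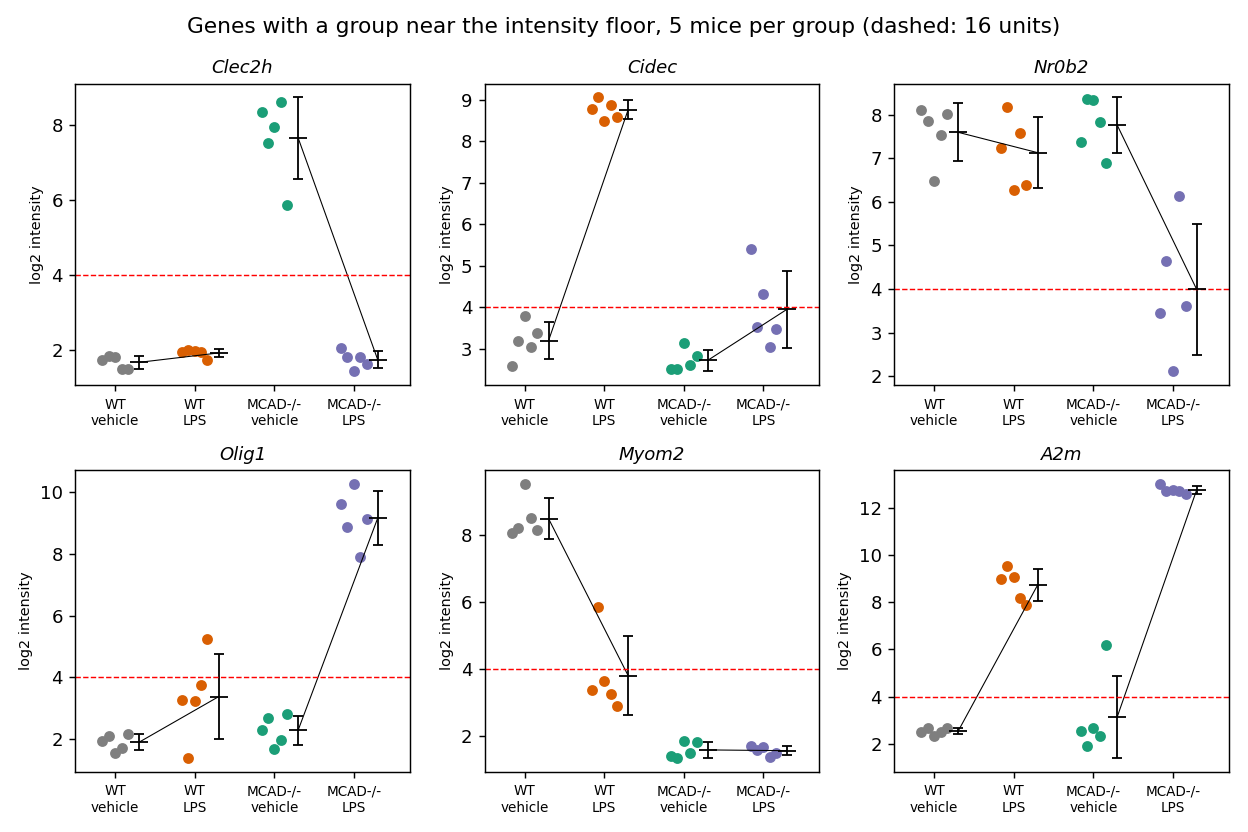
Log2 intensity of 6 genes with at least 1 group mean under 16 units (dashed line) in each of the 5 mice per group, with the mean ± SD (black). Clec2h was above the line in MCAD-/- mice with vehicle only, Olig1 in MCAD-/- mice with LPS and 1 wild type mouse with LPS, and A2m was higher with LPS in all MCAD-/- than in all wild type mice.

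Over all 157 called genes near the floor, the group means under 16 units were those of both vehicle groups and no other in 22, of MCAD-/- with LPS alone in 21 and of wild type with vehicle alone in 21. When every value under 16 units was raised to 16, 106 of the 157 were still called, as were all 204 well measured genes. Just under the limit lay Wdtc1, Hyi and Nr0b2, with lowest group means of 15.8, 15.8 and 15.9 units and interactions of -1.14, -1.25 and -3.31. Just over it lay BC029722, Kdr and Rdh13, with 16.1, 16.2 and 16.7 units and interactions of -1.28, -2.12 and -1.22.

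Acute phase genes mostly had positive interactions, of which few passed. Of 34 members 32 were tested, of which 29 had a positive value (median 0.33) and 2 passed, A2m and Il1r1. Of all 8774 tested genes 3660 had a positive value and 1.36% were called higher. With vehicle 9 members were lower in MCAD-/- mice (median -0.23), and with LPS 3 were higher and 1 was lower (median 0.05). The mean log2 level per mouse was 9.94 to 10.55 in wild type with vehicle and 9.17 to 10.75 in MCAD-/- with vehicle, which overlapped, and 11.63 to 11.87 and 12.05 to 12.20 with LPS, which did not. These means include A2m, with a log2 genotype difference of 4.04 under LPS, where the median over the members was 0.05. The level without A2m was not computed. Among members that did not pass were Orm2 (2.45, adjusted p = 0.0905), the siderophore-binding protein Lcn2 (2.31, adjusted p = 0.152) and the iron hormone hepcidin, Hamp (2.93, adjusted p = 0.111). Lcn2 averaged 1104 units in wild type and 225 in MCAD-/- mice with vehicle, and 13478 and 13584 with LPS.

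Cholesterol synthesis genes were similar in sign. Of 23 members 19 were tested, of which 17 had a positive value (median 0.56) and 1 passed. Of all 8774 tested genes 3660 had a positive value and 1.36% were called higher. Cyp51, which demethylates lanosterol, averaged 399 and 953 units in wild type and 183 and 1207 in MCAD-/- mice (1.47 ± 0.40, adjusted p = 0.0424). Leaving out any 1 of 12 mice ended that call (adjusted p up to 0.0833). Idi1 (1.80, adjusted p = 0.0637) and Sqle (1.55, adjusted p = 0.209) did not pass. The median genotype difference of the list was -0.46 with vehicle and 0.21 with LPS.

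The fasting-induced targets of PPARalpha, the receptor that turns on fatty acid use in a fast, had the opposite sign. Of 25 members 21 were tested, of which 19 had a negative value (median -0.53) and 2 passed, Cidec and Fgf21, both near the floor. Over all tested genes 58.3% had a negative value and 2.76% were called lower, and of the genes near the floor 10.5% passed. Of the tested members, 2 were higher and 1 was lower in MCAD-/- mice with vehicle, and 1 was higher and 10 were lower with LPS. The mean log2 level per mouse was 8.54 to 8.81 in wild type with vehicle and 8.45 to 9.28 in wild type with LPS. It was 8.49 to 8.92 in MCAD-/- with vehicle, and these 3 groups overlapped. In MCAD-/- mice with LPS it was 7.79 to 8.40, with the highest only just below the lowest wild type LPS mouse. These means include Cidec, which read 361 to 532 units in wild type with LPS and 8.29 to 42.1 in MCAD-/- with LPS. The level without Cidec was not computed. Fgf21, a fasting hormone of the liver, read 7.35, 23.1, 17.0, 19.6 and 21.7 units in wild type with vehicle, 12.8, 28.4, 7.27, 16 and 32.5 in wild type with LPS, 25.2, 19.0, 15.7, 14.8 and 12.7 in MCAD-/- with vehicle and 5.96, 3.75, 5.17, 4.37 and 4.04 in MCAD-/- with LPS. All values are dim, and with the MCAD-/- LPS group at 16 units the interaction was at most -0.12 (fitted -1.92 ± 0.49, adjusted p = 0.0309); with values raised to 16 it did not pass (adjusted p = 0.597), nor without any 1 of 5 mice (adjusted p up to 0.0610). Members that did not pass included G0s2, an inhibitor of lipolysis (-1.52, adjusted p = 0.0742), Mgll, a monoglyceride lipase (-1.10, adjusted p = 0.0857), and Plin5, a lipid droplet coat protein (-1.06, adjusted p = 0.0877).

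Among 23 tested genes for mitochondrial fatty acid oxidation, 19 values were negative (median -0.30) and 0 passed; Acadl and Acadvl, the long and very long chain dehydrogenases, gave -0.27 ± 0.16 (adjusted p = 0.381) and -0.30 ± 0.12 (adjusted p = 0.164), and Cpt1a -0.25 ± 0.23 (adjusted p = 0.604). Of 22 peroxisomal and microsomal oxidation genes 1 passed. Acaa1a, a peroxisomal thiolase, averaged 484 and 441 units in wild type and fell from 673 to 341 in MCAD-/- mice (-0.85 ± 0.18, adjusted p = 0.0119). Of 6 ketone synthesis genes Bdh1 passed, which reduces acetoacetate and fell 2.42-fold in wild type and 5.69-fold in MCAD-/- mice (-1.23 ± 0.29, adjusted p = 0.0187; 0.02 on a linear scale relative to the gene's mean, adjusted p = 0.962). Of 22 fatty acid and triglyceride synthesis genes 2 passed, Lpin2, a phosphatidate phosphatase (-1.10 ± 0.29, adjusted p = 0.0360), and Gpam, a glycerol phosphate acyltransferase (-0.87 ± 0.24, adjusted p = 0.0436). On its next brightest probe set Gpam gave -0.03 (adjusted p = 0.987). Without any 1 of 11 mice for Lpin2 and 14 for Gpam these calls ended (adjusted p up to 0.0697 and 0.0796). Over all tested genes 58.3% had a negative value, 4.11% passed and 2.76% were called lower.

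Of the glucose genes, interactions passed in 1 of 20 tested for gluconeogenesis, 1 of 15 for glycogen and 0 of 15 for glycolysis. Over all tested genes 4.11% passed. Pcx, pyruvate carboxylase, read 1636, 1733, 1741, 1711 and 1816 units in wild type with vehicle, 1531, 1525, 1368, 1937 and 1499 in wild type with LPS, 1059, 1397, 1091, 1159 and 1412 in MCAD-/- with vehicle and 1624, 1609, 1681, 1856 and 1689.8 in MCAD-/- with LPS. The MCAD-/- mice with vehicle were below all other mice except wild type LPS replicate 3 (0.62 ± 0.15, adjusted p = 0.0187). Gys2, liver glycogen synthase, read 1917, 1961, 1973, 1885 and 1999.9 units in wild type with vehicle, 491, 339.6, 233, 351 and 452 in wild type with LPS, 2726, 2237, 2698, 2446 and 1874 in MCAD-/- with vehicle and 239, 198, 113, 256 and 179 in MCAD-/- with LPS. It fell 5.39-fold in wild type and 12.5-fold in MCAD-/- mice, with overlap between the genotypes under either injection (-1.22 ± 0.28, adjusted p = 0.0173).

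Slc2a2 and G6pc, which act in glucose release, fell with LPS in both genotypes, and their interactions did not pass. Slc2a2, the hepatocyte glucose transporter, averaged 2539 and 67.4 units in wild type and 1874 and 27.0 in MCAD-/- mice (-0.88 ± 0.33, adjusted p = 0.130). G6pc, the catalytic subunit of glucose-6-phosphatase, averaged 1899 and 291 units in wild type and 2684 and 113 in MCAD-/- mice (-1.86 ± 0.83, adjusted p = 0.218), with a wide spread in MCAD-/- mice with LPS, from 22.6 to 443 units. Pck1 gave 0.09 ± 0.19 (adjusted p = 0.838), Fbp1 -0.08 ± 0.12 (adjusted p = 0.771) and the phosphorylase Pygl 0.21 ± 0.22 (adjusted p = 0.649). Ppargc1a, a coactivator of fasting genes, was higher in MCAD-/- mice under either injection, with an interaction of 0.08 ± 0.46 (adjusted p = 0.947). Pklr gave -0.21 ± 0.48, Mlxipl 0.12 ± 0.26, Ppara -0.63 ± 0.25 and Pdk4 -1.96 ± 0.87 (adjusted p = 0.847, 0.841, 0.161 and 0.213). A p that misses the threshold does not show equal responses, since the median SE of an interaction was 0.22.

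Calls in other metabolic lists were 1 higher and 2 lower of 24 tested bile acid genes, and 1 higher of 27 amino acid genes. Of 26 drug metabolism genes 1 was lower, and of 20 growth hormone genes 1 was higher and 1 lower. Of 27 citric acid cycle and pyruvate dehydrogenase genes 2 were higher, of which Pcx is the call already given for gluconeogenesis. Nr0b2, in the bile acid list, and Ugt2b38, the higher growth hormone call, had a group mean under 16 units. Over all tested genes 1.36% were called higher and 2.76% lower. Abcg5, a sterol transporter into bile, fell 5.46-fold in wild type and 2.33-fold in MCAD-/- mice (1.23 ± 0.20, adjusted p = 0.00144), while Abcb4, the phospholipid transporter of the bile canaliculus, fell 3.14-fold and 7.14-fold (-1.19 ± 0.26, adjusted p = 0.0119). On a linear scale relative to the gene's mean Abcb4 gave 0.00 (adjusted p = 0.990). Dbt, a subunit of the branched-chain ketoacid dehydrogenase, fell less in MCAD-/- mice (0.92 ± 0.17, adjusted p = 0.00287), with 0.29 on a linear scale (adjusted p = 0.179). Dlat, a subunit of pyruvate dehydrogenase, also fell less (1.04 ± 0.28, adjusted p = 0.0361). That call was lost without any 1 of 12 mice (adjusted p up to 0.0680). Dlat gave -0.17 on a linear scale (adjusted p = 0.410) and 0.78 on its next brightest probe set (adjusted p = 0.0971). Fmo5, a flavin monooxygenase (-1.45 ± 0.29, adjusted p = 0.00774), and Ghr, the growth hormone receptor (-0.85 ± 0.21, adjusted p = 0.0226), fell further in MCAD-/- mice; on the next brightest probe sets the values were -2.24 (adjusted p = 0.0608) and -0.34 (adjusted p = 0.322). Of the circadian clock, immediate early, p53 and interferon-gamma lists 1 member each passed, which were Usp2, Gadd45b, Phlda3 and Gbp2b, each with a group mean under 16 units.

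Most interferon and cytokine genes were induced in both genotypes. Of 32 tested type I interferon-stimulated genes 31 rose in each genotype; 4 had a negative interaction past the threshold, against 2.76% of all tested genes, and 0 a positive one, and the median was -0.10. Irf7, the transcription factor that amplifies interferon production, rose 33.8-fold in wild type and 17.9-fold in MCAD-/- mice (-0.92 ± 0.25, adjusted p = 0.0430; lost without any 1 of 14 mice, adjusted p up to 0.0825). Ifit2 (-1.27), Oasl2 (-1.73) and Xaf1 (-2.68) had a group mean under 16 units. Of 25 cytokine, chemokine and NF-kappaB target genes 1 was higher, Il1r1, and 3 were lower, Cxcl11, Cxcl13 and Vcam1. Of 19 LPS sensing genes Nod1 and Casp4 were higher, both near the floor, and of 20 antioxidant genes 1 was, Gclc. Of 21 heat shock proteins 18 were tested, of which 16 had a negative value (median -0.32) and 0 passed, with Hsph1 nearest (-1.17, adjusted p = 0.0556). Over all tested genes 58.3% had a negative value and 1.36% were called higher.

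No member passed among the genes of oxidative phosphorylation (39 tested, median -0.04), the cytosolic ribosome (26, -0.10), the proteasome (31, -0.11), complement and coagulation (30, -0.03), hepatocyte secreted proteins (29, -0.11), iron and haem handling (21, -0.16), endoplasmic reticulum chaperones (22, 0.17), the integrated stress response (21, -0.15) or glucocorticoid targets (18, 0.17). Over all tested genes 4.11% passed, and 2.80% of the well measured ones. The plot of list medians sets these lists beside the others.

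**Figure D5:**
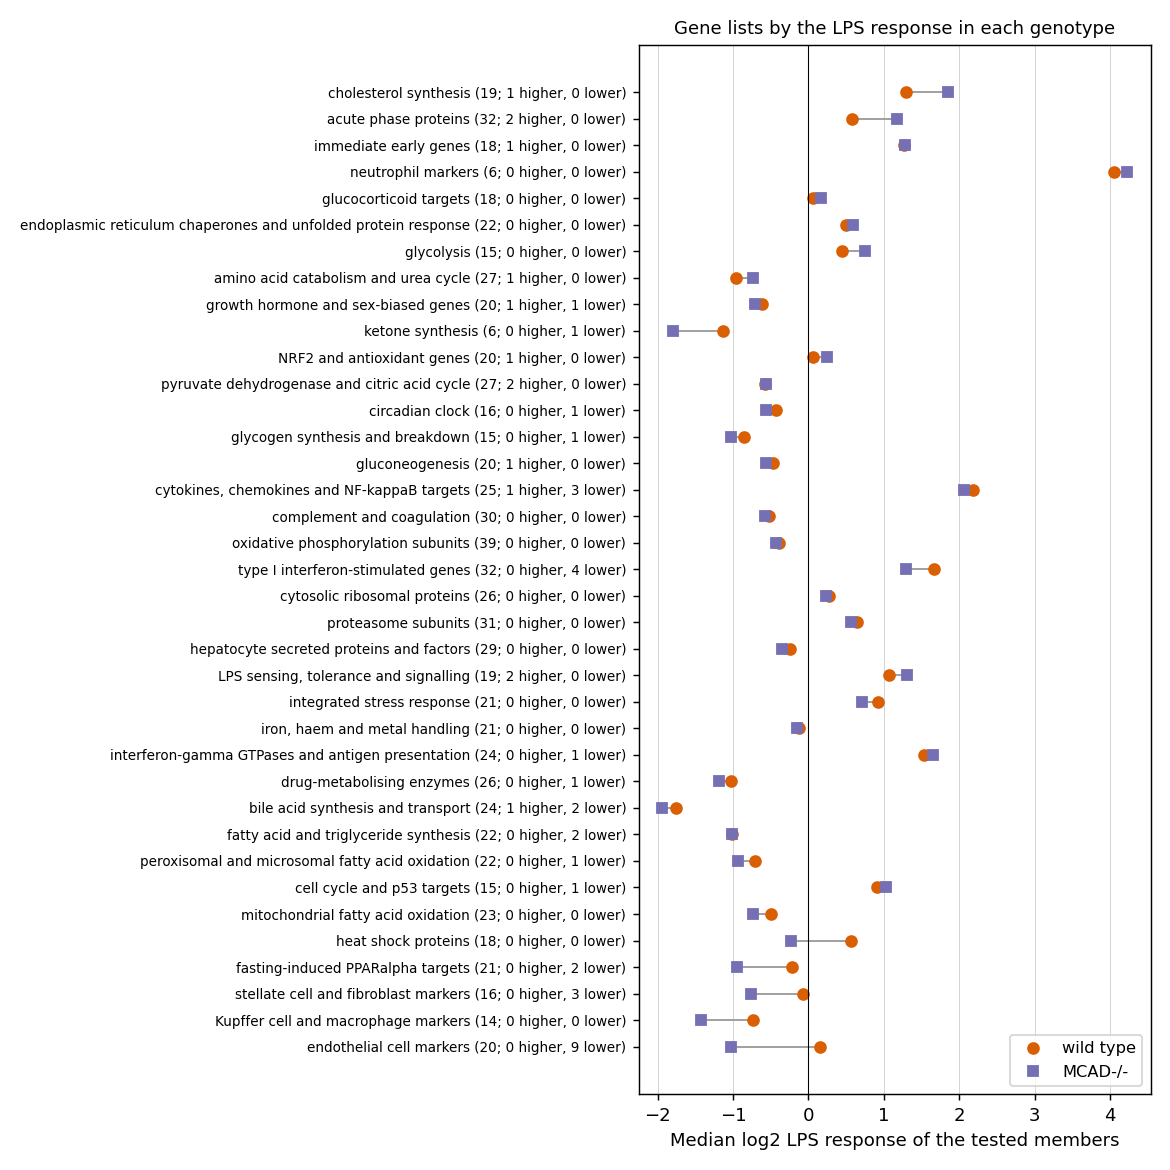
Median log2 LPS response of the tested members of each gene list in wild type (circles) and MCAD-/- mice (squares), with the number tested and the numbers with a higher or lower interaction past the threshold; lists are ordered by their median interaction. The endothelial markers show the widest gap, from 0.15 in wild type to -1.03 in MCAD-/- mice, and most other lists have nearly the same median in both.

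Called genes differed in the length of the gene. The median span from start to end of the RefSeq gene was 52.4 kb for the 72 well measured genes with a positive interaction, 22.5 kb for the 132 with a negative one and 23.9 kb for the 8756 tested genes with a known span. This span is that of the gene and not of its RNA. The actin 3' to 5' log2 ratio, the sign of RNA quality given above, was 1.40 to 1.81 in MCAD-/- mice with LPS and 1.69 to 2.34 with vehicle. In wild type mice it was 1.35 to 1.78 with LPS, apart from replicate 4 at 3.69, and 1.70 to 3.18 with vehicle. The part of this ratio in the pattern of gene length was not tested.

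Single mice were uneven in the called genes. MCAD-/- vehicle replicate 5 was the highest of its group in 55 of the 119 genes with a positive interaction and the lowest in 91 of the 242 with a negative one. Without that mouse 466 genes were called. Wild type LPS replicate 4 was the highest of its group in 100 of the 242, and replicate 3 the lowest in 97; without them 284 and 468 genes were called.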

How the data were processed

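Liver RNA of 20 mice was hybridised to 1 Affymetrix array each. The deposited values are probe set intensity values on a linear scale, made by the authors with GCRMA, per the submitters' processing notes. No version or setting of it was found in the labels. GCRMA pulls dim probe sets to a floor, so log2 differences there are limited. From the deposited intensity the log2 was taken with no pseudocount.

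Of 45101 probe sets 64 controls were left out; 34945 had 1 gene symbol, 932 several and 9160 none. Symbols came from the platform annotation, and 34741 matched RefSeq by gene ID. The probe set with the highest mean stood for its gene. Genes over 16 units on at least 5 arrays were fitted in 1 model of 4 groups (limma 3.58.1, R 4.3.3; lmFit and eBayes), two-sided, with Benjamini-Hochberg adjustment over 8774 genes and a threshold of 0.05. Every adjusted p is from that fit unless another setting is named. The design text calls the mice biological replicates. Replicate numbers were not treated as pairs. The number of arrays limits the precision. The fit was tested on simulated data.

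Named genes were the 10 largest and 10 most negative well measured interactions, the 4 of each near the floor, up to 3 well measured called members per list, the 6 of smallest adjusted p among well measured genes whose LPS responses passed in opposite directions, and a fixed panel of metabolic genes. Other list members named without a full set of statistics were chosen after their values were seen. Members and lists were chosen with earlier results of these data known. Alternatives covered the filter, the probe set rule, scale, floor, centring, array weights, a replicate block and each mouse left out.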

Additional observations from a re-analysis of the deposited data

Results flagged for a closer look

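The 2 LPS responses differed by a test of the difference itself in 361 genes, 204 of them well measured. Of the 22 well measured genes whose response passed in both genotypes with opposite signs, the 6 of smallest adjusted p had an interaction of -1.97 for Slco2a1, 1.69 for Atxn1, 1.63 for Slc4a4, -1.63 for Pdgfrb, -1.64 for Myo10 and 0.99 for 4932438A13Rik.

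A single mouse stood far from the other 4 of its group in 4 of 104 groups examined over 26 measures, where chance alone gives about 1 in 20. Wild type LPS replicate 4 had an actin 3' to 5' log2 ratio of 3.69, against 1.35 to 1.78 in the rest of its group. MCAD-/- vehicle replicate 1 had a log2 level of Fabp4 of 7.16, against 6.15 to 6.43. MCAD-/- LPS replicate 1 had a log2 level of Pir of 3.63, against 4.59 to 4.80. MCAD-/- LPS replicate 3 had a log2 level of Acnat2 of 6.73, against 8.25 to 8.60.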

How the results depend on the processing

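The count of 361 interactions was 236 with a filter of 64 units, 879 with array weights and 529 on a linear scale, where each value is relative to the gene's mean. The 204 well measured genes became 354 on a linear scale and 604 with array weights, and 161 with a limit of 32 units. With array weights the genotype difference with vehicle passed in 2855 genes. With each probe set tested on its own the LPS response passed in 8511 probe sets in wild type and 8734 in MCAD-/- mice. On a linear scale Acnat2 passed with the opposite sign (-1.16, adjusted p = 0.000706). Dlat had the opposite sign there and did not pass (-0.17, adjusted p = 0.410). Fabp4 (0.06), Bdh1 (0.02) and Abcb4 (0.00) showed no clear interaction on that scale (adjusted p = 0.909, 0.962 and 0.990). The cause was not tested. Leaving out 1 mouse gave 262 to 468 interactions, 139 to 291 well measured ones, 5344 to 5676 and 5462 to 5949 LPS responses in wild type and MCAD-/- mice, and 1045 to 1571 and 1371 to 2005 genotype differences with vehicle and with LPS. Without both arrays of high actin ratio, an alternative chosen after seeing the data, 323 genes were called. With the replicate block 384 genes were called, 320 of them shared with the fit without it; deviations of same-numbered mice correlated at -0.121 to 0.284 over 30 pairs, so the numbers were not taken as pairs.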
